A study of Mus musculus with 10 samples.

Results

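The 10 genes described here encode transcription factors that drive or restrain adipogenesis, and they were taken by gene symbol from the 18384 genes listed in the mRNA-seq files. They are Pparg, Cebpa, Cebpb, Cebpd, Ebf1, Ebf2, Zfp423, Zfp521, Gata2 and Gata3, and all 10 were listed in every library. The libraries came from adipocyte precursors (APs) of the subcutaneous white adipose tissue of C57BL/6 J mice. In the study, cells positive for CD45 or CD31 were depleted and SCA-1-positive cells were then retained, both on magnetic columns. Control APs (3 libraries, numbered 1 to 3) were grown in growth medium, and IL-4–treated APs (3 libraries, numbered 4 to 6) were grown in the same medium with IL-4 and harvested on day 4. Neither group received the differentiation cocktail, so both are undifferentiated cultures. The age and sex of the mice, and whether each culture came from separate mice, are not given in the sources used here, and the p-values measure the spread between these libraries.

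Adipogenesis is run by a cascade of transcription factors. CEBPB and CEBPD appear first, and they switch on PPARG and CEBPA, which then maintain each other and activate the genes of lipid storage. EBF1, EBF2 and ZFP423 act earlier, in committing precursors to the lineage, and EBF2 is best known for brown and beige adipocytes. ZFP521, GATA2 and GATA3 hold the cascade back, and GATA2 and GATA3 do so in part by repressing Pparg. PPARG and the CEBP factors also work in macrophages, EBF1 in B cells, GATA2 in mast cells and blood progenitors, and GATA3 in lymphocytes.

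Pparg has several start sites, which give mRNAs with different first exons. The 100 bases before 3 of its starts are shown because Pparg was the member that changed most, and those before both Gata2 starts because Gata2 encodes one of its repressors and went the other way. The sequences are from RefSeq on GRCm38.p6, read 5′ to 3′ on the gene's plus strand and ending 1 base before the start. Capitals mark GGGCGG (the GC box), CCAAT and TATAAA, on either strand.
Pparg, first start, chr6:115361044-115361143: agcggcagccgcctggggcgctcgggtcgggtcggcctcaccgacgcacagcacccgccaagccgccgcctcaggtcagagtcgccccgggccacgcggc
Pparg, second start, chr6:115362249-115362348: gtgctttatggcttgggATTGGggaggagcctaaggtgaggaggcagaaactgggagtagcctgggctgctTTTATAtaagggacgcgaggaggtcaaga
Pparg, start farthest downstream, chr6:115421966-115422065: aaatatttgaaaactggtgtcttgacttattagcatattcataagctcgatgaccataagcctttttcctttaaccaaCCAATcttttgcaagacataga
Gata2, first start, chr6:88193791-88193890: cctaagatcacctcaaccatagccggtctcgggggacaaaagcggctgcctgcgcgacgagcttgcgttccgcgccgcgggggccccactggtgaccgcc
Gata2, second start, chr6:88198564-88198663: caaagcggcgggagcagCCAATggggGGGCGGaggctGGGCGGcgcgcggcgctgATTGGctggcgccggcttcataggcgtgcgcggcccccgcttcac
The Pparg starts differed in base composition. In windows of 300 bases, from 250 before each start to 50 after it, G and C made up 80.3% of the first window with 44 CG dinucleotides, 62.7% of the second with 13, and 40.3% of the one farthest downstream with 2. Over all 32841 windows in the table the medians were 52.7% and 7. Windows were found for 7 members (Pparg, Cebpa, Cebpb, Ebf1, Zfp423, Gata2 and Gata3), 12 windows in all. GGGCGG lay in 8 of the 12 windows and in 35.7% of all windows, CCAAT in 3 and in 37.4%, and TATAAA in 3 and in 13.6%. No window of a member held TTC and GAA with 4 bases between, the letters STAT6 is known to read, which lay in 6.95% of all windows. The same was true with 3 bases between (8.30% of all windows), of the C/EBP palindrome TTGCGCAA (0.183%) and of the EBF palindrome, TCCC and GGGA with 2 bases between (0.904%). These counts describe letters in short windows only. The files give 1 value per gene, so reads were not assigned to a start, and the mean transcript length that the authors' software weighted by isoform was 1834 to 1892 bases in control APs and 1846 to 1893 bases in IL-4–treated APs for Pparg.

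Depth was even, between 28526782 and 28674604 expected counts per control library and between 28914003 and 29057787 per IL-4 library. An expected count is the software's estimate of the reads of a gene, and FPKM is that estimate per kilobase of transcript and scaled to a fixed library size. The top 10 genes held 9.14% to 9.59% of the reads of control APs and 13.8% to 15.5% with IL-4. Changes are therefore given on counts scaled by edgeR's TMM method, which centres the typical gene near 0 (median log2 fold change of all 14009 tested genes 0.003), whereas levels are given in FPKM. FPKM values understate a rise with IL-4 by comparison, since the same median was -0.17 when only library totals were used. In each group 1 library stood apart by gene length. Relative to the other libraries of its group, control 3 had a median log2 difference of 0.15 for genes with transcripts under 1500 bases and -0.15 for those over 5000 bases, and IL-4 6 had 0.31 and -0.34. Each factor was also fitted without 1 or both of these libraries, and these fits are given or are among the alternatives counted.

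The precursor label was checked first. Ly6a, which encodes the selected surface protein SCA-1, was at 108 to 131 FPKM in control APs and at 217 to 291 in IL-4–treated APs. Pdgfra, a receptor of adipose mesenchymal cells, was at 53.4 to 57.2 and 59.5 to 77.4 FPKM. All 14 AP markers were tested, of which 8 were higher and 3 lower with IL-4, beside 19.0% and 18.4% of all 14009 tested genes. Their summed level was 8816 to 9228 FPKM in control APs and 12280 to 13360 with IL-4, most of it from collagen genes. The 3 lower were Pdgfrb (173 to 200 FPKM in control APs and 96.4 to 112 with IL-4), Lum (21.7 to 26.2 and 12.3 to 15.2) and Dlk1 (1.34 to 1.76 and 0.56 to 1.13). The cultures also held macrophage mRNA despite the depletion of CD45-positive cells. Ptprc, the gene of CD45, was at 16.95 to 19 FPKM in control APs and 8 to 8.48 with IL-4, Csf1r at 83.9 to 102 and 39.5 to 40.2, Adgre1 at 51.2 to 60.7 and 40.3 to 42.5, and Spi1 at 40.4 to 50.8 and 25.1 to 34.3. Of 19 macrophage markers, 16 were lower and 2 higher, and their summed level was 4823 to 6295 FPKM in control APs and 2227 to 2980 in IL-4–treated APs. The 2 higher were Mrc1 (81.18 to 99.99 FPKM in control APs and 133 to 153 with IL-4) and Ctss (204 to 273 and 304 to 426). Cd68 was not called (218 to 293 and 254 to 344 FPKM). All 7 tested genes of a list of 10 that macrophages express after IL-4 were higher, with a summed level of 3.04 to 9.17 against 3494 to 4742 FPKM. These genes were listed for their rise with IL-4, so this count was largely fixed in advance. Ccl24, for example, had 0 to 2 reads in control APs and 305 to 393 with IL-4. Of the 3 not tested, Ccl17 was at 0.30 to 0.52 FPKM in control APs and 0 to 0.22 with IL-4. Ccl22 was at 0 to 0.12 and 0.12 to 0.33, and Cd209d at 0 and 0 to 0.09. In these bulk samples, fewer cells of a type and less mRNA per cell cannot be told apart, and how much of each factor's mRNA came from macrophages was not tested.

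Of the 10 factors, 6 were higher and 2 lower in IL-4–treated APs at an adjusted p under 0.05 (quasi-likelihood test of edgeR, adjusted by the Benjamini-Hochberg method over the 14009 genes). Pparg, Cebpa, Cebpd, Ebf1, Ebf2 and Gata3 were higher, Zfp423 and Gata2 were lower, and Cebpb and Zfp521 did not pass. Over all genes tested, 19.0% were higher and 18.4% lower by the same rule. Without control 3 and IL-4 6, 7 factors were higher and 2 lower, against 25.5% and 25.1% of 14041 genes. With the study's threshold of a log2 fold change beyond 1, only Pparg was higher and none was lower, against 5.77% and 5.26% of all genes. The median log2 fold change of the 10 was 0.47, against 0.003 for all genes. All 8 called factors had groups that did not overlap, in FPKM and in normalized counts. This is not separate support for the calls, since both rest on the same values, and the share over all genes was not counted.

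**Figure D1:**
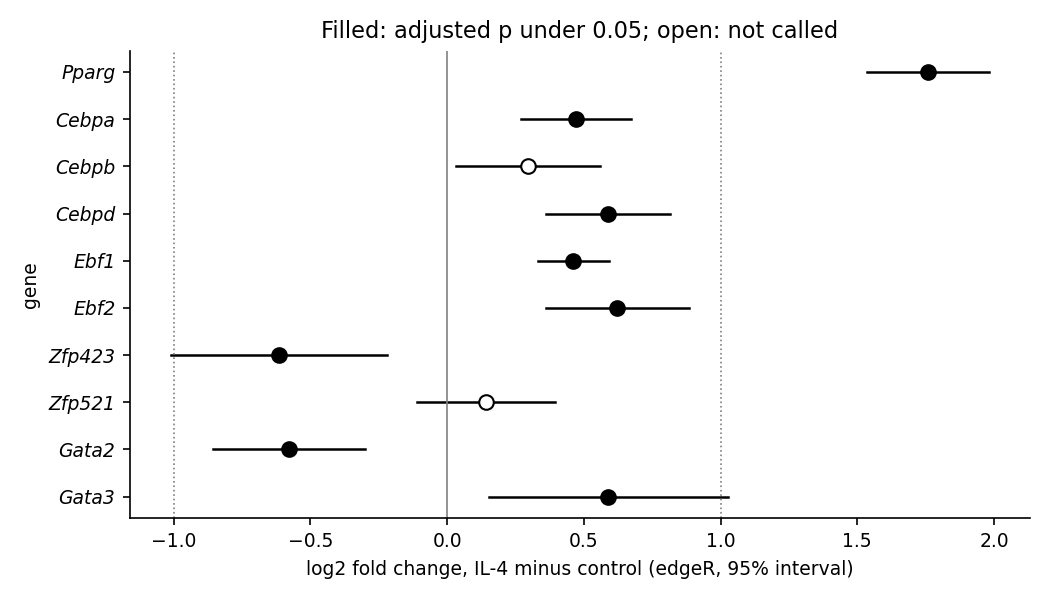
log2 fold change of each factor in IL-4–treated against control APs from edgeR, with lines for the 95% interval and filled points where the adjusted p was under 0.05. Pparg alone lies beyond the dotted line at 1, and its whole interval (1.53 to 1.98) does. Zfp423 and Gata2 lie to the left of 0.

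The inducers of the terminal program, Pparg and Cebpa, both rose but by different amounts. Pparg (Entrez gene 19016, GRCm38 chromosome 6, 115360879 to 115490404), which encodes the nuclear receptor required for fat cell formation, was at 5.86, 5.55 and 5.54 FPKM in control APs. With IL-4 it was at 15.7, 15.6 and 19.4 FPKM. Every IL-4 library was far above every control library, and IL-4 6 was the highest. The reads behind these values were 280 to 300 in each control and 804 to 1018 in each IL-4 library. Normalized counts rose from 275 ± 8.71 to 931 ± 104 (SD, n = 3 each), a fold of 3.38 (95% interval 2.90 to 3.95, adjusted p = 4.82e-06). Without control 3 and IL-4 6 the log2 fold change was 1.65 in place of 1.76, and it remained past the threshold under all 15 alternatives. Cebpa (Entrez gene 12606, chromosome 7, 35119293 to 35121928), an intronless gene whose product sustains Pparg and insulin sensitivity in fat cells, was at 16.5, 15.9 and 17.4 FPKM in control APs. With IL-4 it was at 17.9, 20.5 and 22.9 FPKM. From 1166 to 1283 reads in the controls and 1327 to 1713 with IL-4, the groups were separate but nearly touched, and the IL-4 libraries were the more spread. Its fold was 1.39 (95% interval 1.21 to 1.59, adjusted p = 0.00361), and it was called under all 15 alternatives, with log2 fold changes from 0.28 to 0.56.

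**Figure D2:**
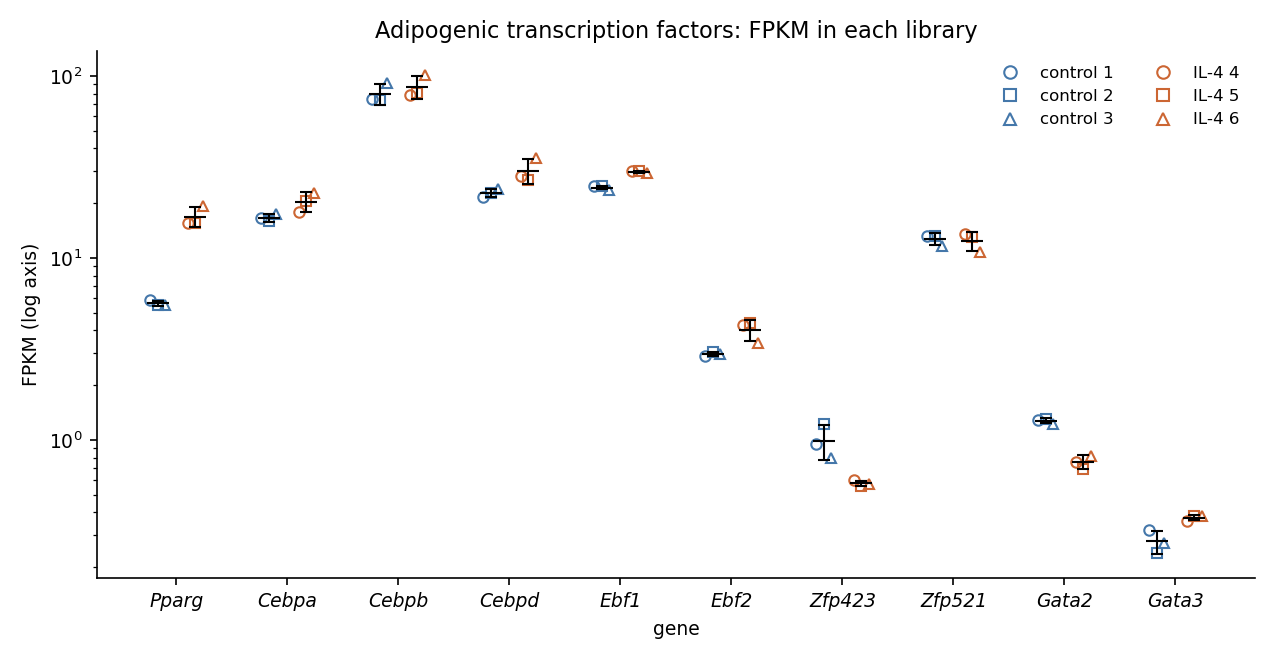
FPKM of the 10 factors in each library on a log axis, with blue for control APs and orange for IL-4–treated APs, a horizontal tick for the mean and bars for the SD (n = 3). Pparg shows the widest gap between groups, from a control mean of 5.65 to an IL-4 mean of 16.9. The triangles, which are control 3 and IL-4 6, are the highest of their group for Cebpb and Cebpd and the lowest for Zfp521.

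Of the early factors of the cascade, Cebpd rose and Cebpb was not called. Cebpb (Entrez gene 12608, chromosome 2, 167688915 to 167690432) encodes the factor that starts the cascade after hormonal induction, and it had the highest FPKM of the 10 in both groups. It was at 74.7, 73.5 and 92.0 FPKM in control APs and at 78.7, 81.1 and 102 with IL-4. Reads ran from 3042 to 3827 in the controls and from 3296 to 4298 with IL-4. The groups overlapped, since control 3 was above both IL-4 4 and IL-4 5 in FPKM and reads. In normalized counts control 3 (3590) was above IL-4 4 (3526) but below IL-4 5 (3638). Its fold was 1.23 (95% interval 1.02 to 1.47) and the adjusted p was 0.0767, so it was not called. Cebpb is short (1518 bases), and its normalized count was above that of the other libraries of the group by 0.29 in control 3 and by 0.31 in IL-4 6 (log2). It was called without control 3 (log2 fold change 0.40, adjusted p = 0.0319), without both libraries (0.29, 3.44e-05) and with an offset for gene length in each library (0.22, 0.00929). Cebpd (Entrez gene 12609, chromosome 16, 15887286 to 15889545), its early partner, was at 21.5, 22.7 and 23.8 FPKM in control APs. With IL-4 it was at 28.3, 27.0 and 35.5 FPKM, with all 3 libraries above the controls and IL-4 6 the highest. Its fold was 1.503 (95% interval 1.28 to 1.76, adjusted p = 0.00209), and without control 3 and IL-4 6 its log2 fold change was 0.50 in place of 0.59.

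The coordinates of Cebpd overlap those of Spidr, a DNA repair gene. Its expected counts were not whole in any library, which marks reads that fitted more than 1 gene. The counts of Cebpd and Spidr summed to a whole number in all 6 libraries (within 0.015 reads), so the shared reads were divided between these 2 genes. Their sum was 2219, 2295 and 2326 reads in control APs and 2769, 2737 and 3169 with IL-4, of which Cebpd was given 60.9% to 64.4% and 62.6% to 71.5%. The sum in normalized counts was 2165 ± 48.9 in control APs and 3052 ± 192 with IL-4 (SD, 3 libraries each), 1.41 times higher and without overlap. The rise of the pair does not depend on how the reads were split, but the share of Cebpd in it does. As split, Spidr was also called higher (log2 fold change 0.33, adjusted p = 0.0112 by the same edgeR test).

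Among the factors of commitment, both EBF genes rose and Zfp423 fell in these mRNA-seq libraries. By qPCR in IL-4–treated APs, the study reported Pparg as raised but no significant increase in Ebf2 or Zfp423. Ebf1 (Entrez gene 13591, chromosome 11, 44618100 to 45008096), which can induce Cebpa and Pparg, was at 24.7, 24.8 and 23.7 FPKM in control APs and at 30.0, 30.1 and 29.3 with IL-4. With 3493 to 3633 reads in the controls and 4383 to 4474 with IL-4, its libraries were the closest to each other within the IL-4 group, with a coefficient of variation of 1.32%. Its fold was 1.38 (95% interval 1.26 to 1.51, adjusted p = 0.000382), and it was called under all 15 alternatives. Ebf2 (Entrez gene 13592, chromosome 14, 67233292 to 67430952), which marks precursors of brown and beige fat and recruits PPARG to their genes, was at 2.88, 3.03 and 2.95 FPKM in control APs. With IL-4 it was at 4.28, 4.39 and 3.41 FPKM. All 3 were above the controls, with IL-4 6 the nearest to them, from 450 to 473 reads in the controls and 542 to 695 with IL-4. Its fold was 1.54 (95% interval 1.28 to 1.84, adjusted p = 0.00330), and without IL-4 6 its log2 fold change was 0.75 in place of 0.62. Transcripts of Ebf2 are long (about 5530 bases), and its normalized count in IL-4 6 was 0.39 (log2) below the other IL-4 libraries, as that of long genes was.

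Zfp423 (Entrez gene 94187, chromosome 8, 87661810 to 87962053) encodes a zinc finger protein that sets up Pparg expression in preadipocytes and favours the white over the thermogenic fate. It was at 0.950, 1.22 and 0.800 FPKM in control APs and at 0.600, 0.560 and 0.570 with IL-4. The IL-4 libraries lay close together and below all controls, which were themselves spread. It rested on 104 to 154 reads in the controls and 73 to 76 with IL-4, and its normalized counts went from 120 ± 25.4 to 78.6 ± 2.51 (SD, n = 3 each). The fold was 0.653 (95% interval 0.496 to 0.858, adjusted p = 0.0232). The call was lost without control 1 (adjusted p = 0.0590), control 2 (0.0724), IL-4 4 (0.0521) or IL-4 5 (0.0709), while the log2 fold change stayed between -0.75 and -0.44 when 1 library was left out. The call was kept without control 3 (adjusted p = 0.0110), IL-4 6 (0.0298) or both (log2 fold change -0.73, adjusted p = 0.00195).

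The inhibitors did not move together. Gata2 (Entrez gene 14461, chromosome 6, 88193891 to 88207032), whose product keeps preadipocytes from differentiating, was at 1.28, 1.31 and 1.23 FPKM in control APs and at 0.760, 0.690 and 0.820 with IL-4. The controls agreed closely and every IL-4 library was below them. Reads numbered 113 to 119 in the controls and 64 to 76 with IL-4. The fold was 0.670 (95% interval 0.553 to 0.811, adjusted p = 0.00618), and the call held under all 14 alternatives in which Gata2 was tested. Of 8 mast cell markers, Fcer1a was at 0 throughout, Cpa3 and Ms4a2 were at or below 0.05 FPKM in every library, and the summed level was 0.470 to 0.520 FPKM in control APs and 0.650 to 0.980 with IL-4. Tpsb2, which had too few reads to be tested, was at 0 in control APs and at 0.17 to 0.37 FPKM with IL-4 (5 to 11 reads). Kit, the 1 mast cell marker with enough reads to be tested, was higher (log2 fold change 0.56, adjusted p = 0.0454).

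Gata3 (Entrez gene 14462, chromosome 2, 9857078 to 9887953), a second repressor of Pparg, was the least abundant factor in both groups. It was at 0.320, 0.240 and 0.270 FPKM in control APs and at 0.360, 0.380 and 0.380 with IL-4, from 22 to 29 and 33 to 35 reads. The groups did not overlap, but the highest control and the lowest IL-4 library were 4 reads apart. The fold was 1.51 (95% interval 1.11 to 2.04, adjusted p = 0.0402). The call was lost when any 1 library was left out (adjusted p between 0.0549 and 0.139) and with DESeq2 (0.178), and of all 14 alternatives in which Gata3 was tested it was kept only with the offset for gene length (0.0278). A neighbouring RNA gene that overlaps Gata3, 4930412O13Rik, had 0 to 2 reads per library. In the lymphocyte list of 12 genes, 4 were tested, of which 2 were higher and 1 lower, and Cd3d, Cd3e and Cd3g were at 0 and Cd79a was at 0.0800 FPKM or less. The lower gene was Cd4, at 0.62 to 0.98 FPKM in control APs and 0.09 to 0.17 with IL-4 (log2 fold change -2.33). Il7r was at 1.73 to 2.22 FPKM in control APs and 4.07 to 4.6 with IL-4, and Il1rl1, the IL-33 receptor gene, at 7.90 to 8.63 and 93.7 to 105. The list's summed level was 10.7 to 11.9 and 98.8 to 110 FPKM, of which Il1rl1 was the most, and its part in the Gata3 value was not tested.

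Zfp521 (Entrez gene 225207, chromosome 18, 13687013 to 13972749), a zinc finger relative of Zfp423 that counteracts EBF1, was at 13.2, 13.3 and 11.7 FPKM in control APs and at 13.6, 13.02 and 10.7 with IL-4. Reads ran from 2045 to 2308 in the controls and from 1901 to 2398 with IL-4. In FPKM and reads the control range lay within the IL-4 range, and in normalized counts the ranges overlapped (1918 to 2215 and 1963 to 2566). The lowest value of each group came from the library that was low for long genes. Its fold was 1.10 (95% interval 0.927 to 1.31, adjusted p = 0.351), an interval that leaves out a change of 2-fold in either direction. Zfp521 was called higher without IL-4 6 (log2 fold change 0.26, adjusted p = 0.0127), without both divergent libraries (0.19, 0.00329) and with the length offset (0.23, 0.000969). Its direction turned when only library totals were used (-0.03) and with limma on FPKM (-0.04), so its direction depended on the scaling.

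**Figure D3:**
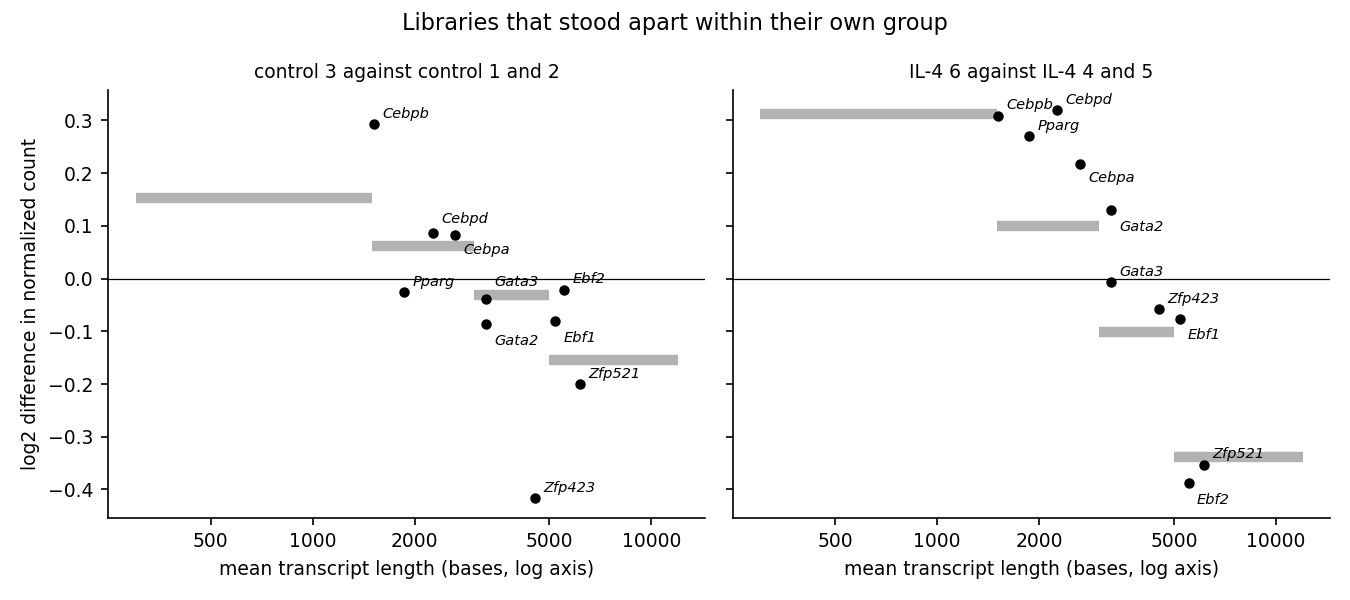
log2 difference in normalized count between the library that stood apart and the other libraries of its group, for control 3 (left) and IL-4 6 (right), against mean transcript length on a log axis. Grey bars are medians of all tested genes within a range of lengths and points are the 10 factors. In IL-4 6 the medians fall from 0.31 to -0.34, with Cebpb and Cebpd at the top and Ebf2 and Zfp521 at the bottom.

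In control APs the order of levels, from high to low FPKM, was Cebpb, Ebf1, Cebpd, Cebpa, Zfp521, Pparg, Ebf2, Gata2, Zfp423 and Gata3. The means ran from 80.1 FPKM for Cebpb to 0.277 for Gata3, and only Ebf1 and Cebpd had ranges that overlapped. With IL-4 the order was Cebpb, Cebpd, Ebf1, Cebpa, Pparg, Zfp521, Ebf2, Gata2, Zfp423 and Gata3. Pparg thus went from below Zfp521 (5.65 ± 0.182 against 12.7 ± 0.895 FPKM, SD, n = 3) to above it (16.9 ± 2.17 against 12.5 ± 1.53). Its range in IL-4–treated APs overlapped that of Cebpa, as the range of Cebpd did that of Ebf1. Of the genes with a read in the group, 52.4% had a lower mean FPKM than Pparg in control APs and 77.3% in IL-4–treated APs. For Cebpb these shares were 95.2% and 95.7%, and for Gata2 34.8% and 31.6%.

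The balance between factors was compared in 6 ratios of FPKM within each library, by exact two-sided permutation tests. With 3 against 3 libraries, no exact permutation test can go below p = 0.10. The ratio of Pparg to Gata2, an inducer to its repressor, was 4.58, 4.24 and 4.50 in control APs and 20.6, 22.6 and 23.7 with IL-4. It was 5.02 times higher with IL-4 and without overlap (exact p = 0.10, adjusted 0.12 over the 6). The ratio of Gata2 to Gata3 was 4.00, 5.46 and 4.56 in control APs and 2.11, 1.82 and 2.16 with IL-4, 0.436 times as high (exact p = 0.10, adjusted 0.12). The ratio of Zfp423 to its relative Zfp521 was 0.0718, 0.0919 and 0.0683 in control APs and 0.0440, 0.0430 and 0.0531 with IL-4, 0.607 times as high (exact p = 0.10, adjusted 0.12). Within the CEBP family the ratio of Cebpb to Cebpd went from 3.52 ± 0.318 to 2.89 ± 0.113 and that of Cebpa to Cebpb from 0.209 ± 0.0172 to 0.235 ± 0.0154 (SD, n = 3 each), both without overlap (exact p = 0.10, adjusted 0.12). The ratio of Cebpb to Cebpd also depends on how reads were split between Cebpd and Spidr. The ratio of Ebf2 to Ebf1 overlapped between the groups, at 0.121 ± 0.00409 and 0.135 ± 0.0164 (exact p = 0.40, adjusted 0.40). These ratios do not depend on how libraries were scaled, and the direction of each was the same without any 1 library.

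By the distance between centred log2 profiles over the 6 libraries, the genes nearest to Pparg were Ly6c1 (distance 0.119), Pcbp3 (0.138), Nat8f3 (0.145), Lpl (0.153) and Ctso (0.163). Their log2 fold changes were 1.78, 1.79, 1.79, 1.72 and 1.67, beside 1.76 for Pparg. With 2 groups of 3 libraries, such likeness reflects mainly a change of equal size. Lpl encodes lipoprotein lipase, a known PPARG target, and was also on the list of adipocyte genes.

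Other regulators of adipogenesis were read from 2 lists. Among 20 activators and coactivators, 8 were higher and 1 lower, with a median log2 fold change of 0.07. Of all tested genes, 19.0% were higher and 18.4% lower. Klf4, which acts upstream of Cebpb, went from 15.8 to 16.5 FPKM in control APs to 70.8 to 79.8 with IL-4, 2.36 on the log2 scale with a standard error of 0.064 (adjusted p = 1.64e-07). Klf9, a late activator of Pparg, rose by 1.12, Egr2 (Krox20), an inducer of Cebpb, by 0.998, and Klf15 by 0.53 on the log2 scale. Srebf1, which controls lipid synthesis, fell by 0.19 (adjusted p = 0.0441), and this call was lost when any 1 library was left out. Rxra, which encodes the obligate partner of PPARG, was at 19.4 to 20.5 FPKM in control APs and 15.2 to 16.9 with IL-4, a log2 fold change of -0.13 that was not called (adjusted p = 0.198). The beige coactivator gene Ppargc1a rose by 3.07 but was below 1 FPKM in every library, and Prdm16 was not called (log2 fold change -0.19, adjusted p = 0.353).

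Among 20 repressors, 5 were higher and 5 lower, with a median of -0.07, beside 19.0% higher and 18.4% lower over all tested genes. The number lower was 8 without IL-4 6, 3 without control 1 or control 2, and 9 without control 3 and IL-4 6. Smad3, the effector of TGF-beta signalling that blocks CEBP activity, fell by 0.62, Trib2, which promotes CEBPA degradation, by 0.58 and Runx1t1, an inhibitor of CEBPB, by 0.52 on the log2 scale. The largest called rises above 1 FPKM were in Nr2f2 (COUP-TFII; 1.70, from 11.3 to 12.0 FPKM to 32.3 to 35.1), Foxo1 (0.53), Trib3 (0.51) and Ddit3 (CHOP, which forms inactive dimers with CEBP factors; 0.47). Irf4 rose by 3.72 and is also a gene that macrophages express after IL-4.

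**Figure D4:**
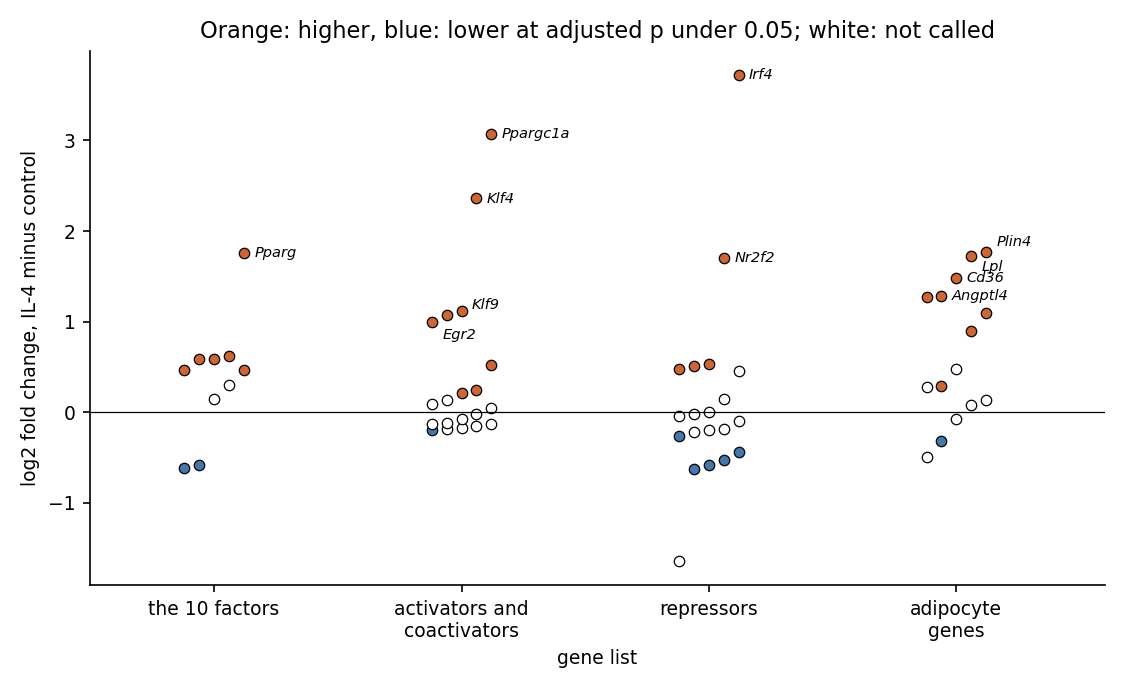
log2 fold change in IL-4–treated against control APs of the 10 factors and of the tested genes of 3 lists, where orange points were higher, blue points lower and white points not called. The tested genes numbered 20 activators, 20 repressors and 15 adipocyte genes. Klf4 at 2.36 and Nr2f2 at 1.70 lie on opposite sides of the pathway and both rose.

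Of 26 genes of mature adipocytes, many of them PPARG targets, 15 had enough reads to be tested. Of these, 8 were higher and 1 lower (median log2 fold change 0.48), beside 19.0% and 18.4% of all tested genes. Plin4, which coats lipid droplets, rose by 1.77, Lpl by 1.72, the fatty acid transporter Cd36 by 1.49 and Angptl4, an inhibitor of lipoprotein lipase, by 1.28 on the log2 scale. Lipe, the hormone-sensitive lipase gene, fell by 0.32 (adjusted p = 0.0432), and this call was lost without control 1, control 3 or IL-4 5. The other 11 had too few reads: Cidec, Lep and Retn were at 0 in every library, Plin1 was at 0.0400 FPKM or less and Ucp1 at 0.0200 or less, and Adipoq was at 0 to 0.0900 FPKM in control APs and 0.270 to 0.390 with IL-4. Lpl, Cd36, Plin2, Fabp4 and Angptl4 are expressed in macrophages as well, and the share of their mRNA from either cell type was not tested.

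The remaining marker lists were low. The 9 endothelial markers summed to 16.96 to 18.1 FPKM in control APs and 17.3 to 18.9 with IL-4, with Pecam1 at 1.56 to 2.52 FPKM over all libraries and Cdh5 at 3.34 to 3.42 and 0.810 to 1.14. All 9 were tested, of which 2 were higher and 4 lower. The lower were Cdh5 (log2 fold change -1.60, adjusted p = 4.16e-05), Emcn (-1.49, 0.00257), Erg (-1.03, 0.00264) and Egfl7 (-0.49, 0.0260). Vwf went from 0.670 to 0.880 FPKM in control APs to 5.03 to 6.45 with IL-4 (log2 fold change 3.08, adjusted p = 2.70e-06), and Tek was also higher (0.81, adjusted p = 0.00151). The 6 epithelial markers summed to 10.2 to 12.3 and 11.9 to 14.3 FPKM, with Epcam at 0.400 to 0.670 and Krt14 at 0.420 to 1.01 FPKM. Of these 6, Krt19 was higher, at 5.99 to 6.86 FPKM in control APs and 8.77 to 10.4 with IL-4 (log2 fold change 0.76, adjusted p = 0.000737), Krt18 was lower (-0.74, adjusted p = 0.0183), and 4 were not called. The part of these cells in the values of the 10 factors was not tested.

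The calls of 6 factors were the same under every processing in which they were tested, and those of the other 4 were not.

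**Figure D5:**
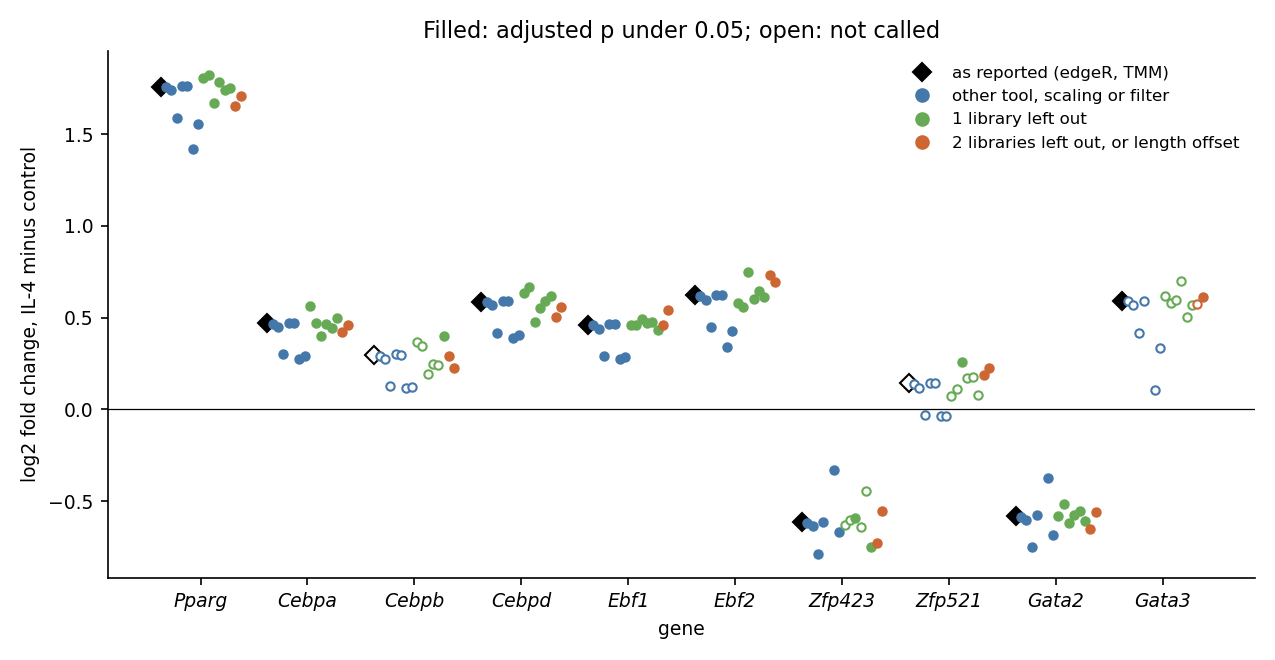
log2 fold change of each factor in IL-4–treated against control APs under the reported processing (black diamonds) and 15 alternatives (circles), filled where the adjusted p was under 0.05. Pparg, Cebpa, Cebpd, Ebf1, Ebf2 and Gata2 are filled throughout, while Cebpb, Zfp423, Zfp521 and Gata3 change between filled and open.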

How the data were processed

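mRNA-seq was done on 3 control and 3 IL-4–treated AP cultures. Reads were filtered by the authors with SOAPnuke, mapped to mm10 with HISAT, and quantified with Bowtie2 and RSEM; the submitters' notes also name StringTie, and versions are not given in the sources used here. The authors deposited expected counts without normalization, beside RSEM's mean transcript length and FPKM scaled by that length and by library size. A gene not listed in a library was taken as 0. In each library 87.0% to 87.2% of expected counts above 0 were whole (within 1e-06). The 1 row with no gene symbol was left out (at most 0.000225% of counts). The 26 symbols that were dates were replaced by the RefSeq symbol of their Entrez number, or by that number where RefSeq had none. The 4 small RNA libraries were not used here.

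After rounding of the expected counts, genes were kept by filterByExpr at a minimum count of 10 and a total of 15, and libraries were scaled by TMM, in edgeR 4.0.16 (R 4.3.3). The quasi-likelihood test then set IL-4 against control over 14009 genes, with Benjamini-Hochberg adjustment, and called at an adjusted p under 0.05. Intervals follow from the standard error, which is the absolute log2 fold change divided by the square root of F. A normalized count is the count over its TMM-scaled library size, times the mean of these sizes. The biological coefficient of variation was 0.0939. The members and lists were chosen with earlier results of these data known. All 10 members were named; from the activators, repressors and adipocyte genes, the 4 largest rises and 4 largest falls among called genes without overlap and with a mean of at least 1 FPKM in a group; the defining markers of each cell type; and the 5 genes nearest to Pparg. Some list genes are not reported here by name. Irf4, Rxra, Ppargc1a, Prdm16, Plin1, Ucp1, Adipoq, Plin2, Fabp4, Il1rl1, Vwf, Tek, Krt18, Krt19, other lymphocyte and mast cell markers, Spidr and 4930412O13Rik were added after their values were seen. So were Pdgfrb, Lum, Dlk1, Mrc1, Ctss, Cd68, Ccl17, Ccl22, Ccl24, Cd209d, Emcn, Erg and Egfl7. Start sites, coordinates and sequences came from RefSeq on GRCm38.p6, the assembly of mm10; the GC, CCAAT and TATA boxes and the TTC and GAA spacing of 3 were added later. Alternatives were DESeq2 1.42.0, upper-quartile scaling, library totals, no filter, a mean of at least 100 normalized counts, limma 3.58.1 on log2 FPKM with a pseudocount of 1 or of 0.1, and each library left out. The 4-library fit and the length offset (lowess of log2 deviations on length, span 0.3) were chosen after seeing the data. The tests were tried on simulated data. Summaries and plots used scipy 1.17.1, numpy 2.4.6, matplotlib 3.10.9 and pandas 2.3.3 in Python 3.11.15.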

Additional observations from a re-analysis of the deposited data

How the results depend on the processing

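Of the 147 values of the 10 factors under the 15 alternatives, 121 kept their direction and side of the threshold, 17 lost the call, 6 gained it and 3 changed direction. Pparg, Cebpa, Cebpd, Ebf1 and Ebf2 kept direction and call under all 15, and Gata2 under the 14 in which it was tested. Cebpb gained the call without control 3 and IL-4 6 (0.29) and with the length offset (0.22), and ranged from 0.19 to 0.40 with 1 library left out. Zfp521 gained it in the same fits (0.19 and 0.23), ranged from 0.074 to 0.256 with 1 library left out, and was -0.032 with library totals, -0.038 with limma on log2(FPKM + 0.1) and -0.035 with limma on log2(FPKM + 1), none of them called. These 3 scalings moved the median of all genes to between -0.17 and -0.13. Zfp423 ranged from -0.75 to -0.44 and Gata3 from 0.51 to 0.70 with 1 library left out. Gata3 was not called with DESeq2 (0.59), upper-quartile scaling (0.57), library totals (0.42), no filter (0.59), limma at a pseudocount of 0.1 (0.34) or 1 (0.11), or the 4 libraries (0.57). A mean of at least 100 normalized counts removed Zfp423, Gata2 and Gata3, which left 0 factors lower by edgeR because they were not tested, and with 1 library left out 1 or 2 were lower. The causes of the other changes were not tested.

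Activators called lower numbered 5 with library totals, 4 with either limma fit and 0 without the filter or with any 1 library left out. Repressors called lower numbered 10 with library totals and both limma fits, 9 with the 4 libraries, 8 with the length offset and 3 to 8 with 1 library left out. Adipocyte genes called lower numbered 3 with the length offset, 2 with library totals, both limma fits, no filter and upper-quartile scaling, and 0 to 1 with 1 library left out. Over all genes, 1704 were higher and 4963 lower with library totals, 1694 and 4904 or 1697 and 4916 with limma, and 3607 and 3553 with the length offset, beside 2663 and 2582 as reported; higher calls made up 25.6% of calls with library totals and 50.8% as reported. The directions of the 6 ratios were the same with expected counts in place of FPKM and with 1 library left out.

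No paired analysis was possible because the mRNA-seq labels number control libraries 1 to 3 and IL-4 libraries 4 to 6, which share no number. Depth limits Gata3 (22 to 35 reads per library) more than the other factors, and Zfp423 (73 to 154) and Gata2 (64 to 119) were also read few times.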
